A study of Mus musculus with 45 samples.

Results

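The 4 mature miRNAs mmu-mir-103-3p, mmu-mir-107-3p, mmu-mir-378a-3p and mmu-mir-378a-5p (below miR-103-3p and so on), which are cut from introns of metabolic genes, were followed in alveolar macrophages (AM). They were picked by name, 4 of the 476 miRNAs listed in any of the 6 tables. No measured value entered that rule, although earlier results of these data were known at the time. All 4 were listed in 5 tables, and 3 of them in the table of co-ex males, where miR-378a-5p was not listed. The 6 tables have 206 miRNAs in common, among them miR-103-3p, miR-107-3p and miR-378a-3p.

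miR-103 and miR-107 lie in introns of the pantothenate kinase genes, whose products catalyse the committed step of coenzyme A synthesis, and they are known for lowering insulin sensitivity in liver and adipose tissue by acting on caveolin-1. miR-378a lies in an intron of Ppargc1b, the gene of the mitochondrial and lipid-metabolism coactivator PGC-1beta, and both of its arms act on genes of oxidative metabolism. In macrophages, miR-378a has also been tied to interleukin-4 signalling through Akt1.

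The 45 mice were 12 weeks old and all were on the C57BL/6 SP-A knockout background, so that every animal, controls included, lacked mouse SP-A, the collectin of lung surfactant. SP-A2 mice carried the human SP-A2 variant 1A0, co-ex mice carried both human variants, SP-A1 6A2 and SP-A2 1A0, and KO mice carried no human transgene. The mice breathed filtered air (FA) or ozone (O3) for 3 h, and AM were taken by lavage after 18 h of recovery. The groups held 3 FA and 3 O3 mice in SP-A2 males, 4 and 3 in co-ex males, and 4 and 4 in each other combination of genotype and sex. The promoter that drives the transgenes is not given in the sources used here.

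The listed miRNAs summed to between 137965 and 2884013 reads per mouse, with a median of 766213. In 6 mice, 3 co-ex and 3 KO, more than 30% of the miRNAs of their table were at 0 (31.7% to 47.3%), and SP-A2 mice had at most 20.9% at 0. The list of haematopoietic and macrophage miRNAs was detected in full (7 of 7 listed, 6 in all tables). The summed level of those 6 was 1278 to 14158 TMM-scaled counts-per-million (CPM), with medians of 5492 in FA and 4676 in O3. That of 2 erythroid miRNAs was higher, 1359 to 649289 CPM with medians of 29245 and 41045. Of the marker lists of other cell types, 13 of 13 epithelial, 10 of 10 mesenchymal and 2 of 2 endothelial miRNAs were listed, and 2 of 6 muscle miRNAs. In bulk RNA, fewer cells of a type and less RNA per cell cannot be told apart.

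The sequences show why miR-103-3p and miR-107-3p are considered together, and why their reads are hard to separate. Both are 23 bases long in RefSeq (GRCm38.p6), with the seed, bases 2 to 8, in capitals:
miR-103-3p: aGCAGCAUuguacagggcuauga
miR-107-3p: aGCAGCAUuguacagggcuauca
They share their first 21 bases and differ at 1 base, G22C, counted from 1 at the 5′ end of miR-103-3p. Only these 2 of 1679 mature mouse miRNAs in the RefSeq set (0.119%) carry the seed GCAGCAU. A read that ends before base 22 cannot be assigned to one of them, so the split of their reads is uncertain.

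The 6 bases GCAGCA also stand 1 position later in the miR-15/16 family, which are shown for that shifted match, with bases 2 to 8 again in capitals:
miR-15a-5p: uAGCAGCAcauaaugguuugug
miR-15b-5p: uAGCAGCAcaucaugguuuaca
miR-16-5p: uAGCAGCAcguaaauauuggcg
In the RefSeq set, 10 mature miRNAs hold these bases at the shifted position, and 6 of them were listed in at least 1 table.

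In GRCm38, the miR-103 precursors lie at chr2:131288052-131288137 (plus strand, an intron of Pank2) and chr11:35782396-35782481 (plus strand, an intron of Pank3), and the same mature miR-103-3p comes from both. The miR-107 precursor lies at chr19:34820687-34820773 (minus strand, an intron of Pank1). All 3 precursors are on the strand of their host gene. Sequence was matched for 2 of the 4 miRNAs. Host transcripts were not measured by these small RNA libraries.

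miR-103-3p was by far the most abundant and the steadiest of these miRNAs. It had reads in 45 of 45 mice, 749 to 26131 with a median of 6728, and it ranked between 17th and 36th of its table by group mean. Its normalized values ran from 2731 to 13277. The SD of log2(normalized value + 1) between mice of one group, pooled over the 12 groups, was 0.38 log2 for miR-103-3p, the 7th lowest of the 206 shared miRNAs, against a median of 1.75 and a range of 0.34 to 3.48.

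The other 3 miRNAs were lower and less steady. miR-378a-3p had a median of 810 reads and reads in 44 of 45 mice, and ranked 46th to 96th. miR-107-3p, at a median of 153 reads, was also found in 44 of 45 mice but ranked 108th to 186th, and 8 mice had fewer than 20 reads of it. miR-378a-5p, the less abundant arm, had a median of 41 reads in the 38 mice of the tables that list it, and 6 of those mice had none.

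The spread within groups was 1.88 log2 for miR-107-3p (109th lowest of 206) and 1.68 for miR-378a-3p (99th). For miR-378a-3p that spread rested on 1 animal, KO male O3 replicate 4, and was 0.72 without it. This mouse had 0 reads of both miR-378a arms in 180625 listed reads, which allows up to 16.6 reads-per-million of listed reads (RPM), at the limit of 3 reads for counting error only, and 47.3% of its listed miRNAs were at 0. It still had 1455 reads of miR-103-3p and 2 of miR-107-3p. The 0 of miR-107-3p was in co-ex male FA replicate 1, the shallowest library with 137965 listed reads, which allows up to 21.7 RPM. The plot of spread against level shows that miR-103-3p sits at the lower edge of the cloud.

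**Figure D1:**
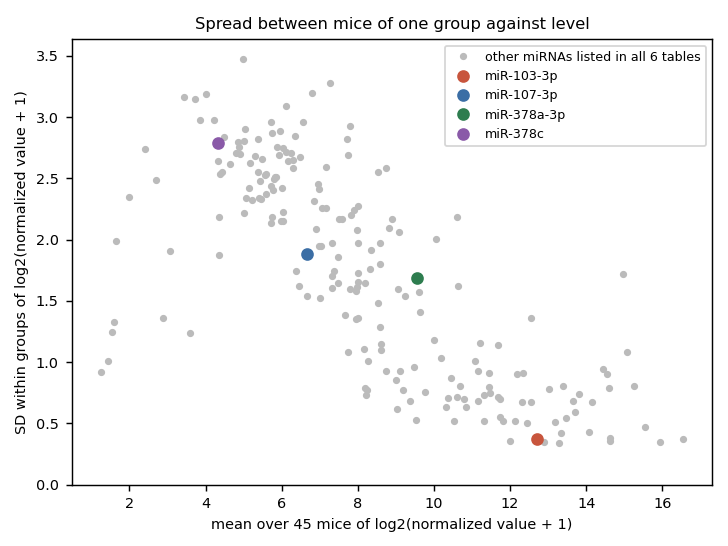
Each point is 1 of the 206 miRNAs listed in all 6 tables. The x axis gives its mean log2(normalized value + 1) over 45 mice and the y axis its pooled SD within the 12 groups on the same scale. miR-103-3p is at an SD of 0.38, miR-378a-3p at 1.68, miR-107-3p at 1.88 and miR-378c at 2.79.

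The 6 mice with many miRNAs at 0 had few reads of miR-107-3p, 0 to 115 with a median of 9, whereas the other 39 had 9 to 729 with a median of 174. These medians were 10.9 and 189.5 RPM. For miR-103-3p the medians were 5469 and 8329 RPM, and for miR-378a-3p 451 and 1094 RPM. The ranges of the 6 mice and of the others overlapped for each of the 3 miRNAs.

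The first question was whether O3 changed these miRNAs 18 h later. None of the 4 passed in any table at a false discovery rate of 0.1 in limma, where the share of all listed miRNAs that passed was 0.67% (males) and 1.07% (females) in SP-A2, 0% (males) and 1.38% (females) in co-ex, and 5.18% (males) and 0% (females) in KO. In the 23 comparisons of a member within a table, 10 differences were above 0 after O3 and 13 below, the smallest adjusted p in limma was 0.38 and the smallest unadjusted p was 0.0869, so none was under 0.05 before adjustment either. The edgeR and DESeq2 tests on recovered reads also called none of them.

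Differences averaged over the 6 tables were likewise not called. miR-103-3p differed by -0.08 log2 (SE 0.13, adjusted p = 0.76, limma), with a 95% confidence interval of -0.34 to 0.18, a fold between 0.791 and 1.13. The interval was wider for miR-378a-3p, whose difference was -0.64 log2 (SE 0.48, interval -1.61 to 0.32, adjusted p = 0.401, limma), and it was widest for miR-107-3p at 0.28 log2 (SE 0.58, interval -0.89 to 1.45, adjusted p = 0.82, limma). miR-378a-5p could not enter this average because one table does not list it. Across all 206 shared miRNAs the same fit called 25.7%, 41 higher (19.9%) and 12 lower (5.83%) after O3, with a median difference of 0.19 log2 over all miRNAs.

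**Figure D2:**
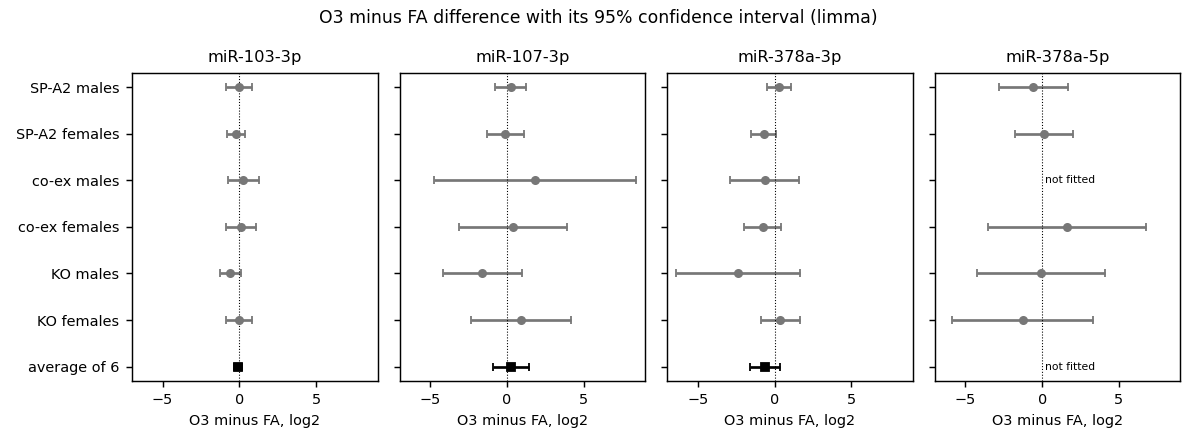
Difference between O3 and FA mice in log2(normalized value + 1), with its 95% confidence interval, for each of the 4 miRNAs (panels) in each table (grey circles) and averaged over the 6 tables (black squares). Every interval includes 0, and those of miR-103-3p are the narrowest, its average running from -0.34 to 0.18.

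KO males came nearest to a difference in miR-103-3p. The 4 FA mice had normalized values of 9278, 8151, 8587 and 8001, and the 4 O3 mice 7718, 4091, 5768 and 5554. All O3 mice lay below all FA mice, the only 1 of the 23 comparisons in which the groups did not overlap. Over all listed miRNAs, groups that did not overlap made up 8.84% in this set and 4.18% in KO females, 22.3% (males) and 5.09% (females) in SP-A2, and 7.26% (males) and 7.93% (females) in co-ex. The difference was -0.59 log2 (SE 0.32, interval -1.28 to 0.10) and did not pass (adjusted p = 0.38, limma), ranking 72nd of the 328 by p. It was -1.03 log2 in edgeR on recovered reads (adjusted p = 0.143) and -0.84 log2 with median-ratio rescaling (adjusted p = 0.214, limma). The FA mice had 6728 to 26131 reads of miR-103-3p in 720987 to 2884013 listed reads. The O3 mice had 1455 to 3882 in 180625 to 579220 listed reads. Every O3 library was thus shallower than every FA library here, and what part depth has in the difference was not tested.

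In the other 5 tables miR-103-3p overlapped between FA and O3. SP-A2 males had 10964, 10759 and 9615 in FA and 12035, 13277 and 6877 in O3, and SP-A2 females had 5903, 7862, 6872 and 7073 against 4499, 7406, 5256 and 6916. Co-ex males showed 5443, 5780, 5355 and 4425 in FA, and 7413, 7308 and 4482 in O3. The differences in these 5 tables lay between -0.22 and 0.26 log2, and that in KO females was -0.01 log2 (interval -0.86 to 0.85).

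miR-107-3p, the near twin of miR-103-3p, gave the widest range of differences, from -1.62 log2 in KO males to 1.83 in co-ex males. The KO male difference was -0.68 log2 without O3 replicate 4, the mouse with 2 reads and many miRNAs at 0, and -2.34 without O3 replicate 3. In co-ex males the FA mice had values of 0, 307, 59 and 9 and the O3 mice 8, 273 and 157. Mice of either exposure were thus found at both ends of the scale, and the interval of the difference ran from -4.72 to 8.39 log2. In SP-A2 mice the values were closer together, 129 to 427 in FA and 114 to 488 in O3 over both sexes, with differences of 0.24 log2 in males and -0.10 in females.

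miR-378a-3p, the abundant arm, was below its FA level in 4 of 6 tables. SP-A2 females had 1274, 922, 654 and 919 in FA and 368, 758, 465 and 788 in O3. These groups overlapped, and the difference of -0.70 log2 (SE 0.38, interval -1.51 to 0.12) did not pass (adjusted p = 0.479, limma). KO males had 1593, 831, 852 and 938 in FA, and 1324, 948, 1103 and 0 in O3. The difference of -2.40 log2 (SE 1.86) in KO males rested on the single mouse at 0, without which it was 0.14 log2. Without that mouse the average over the 6 tables fell in size from -0.64 to -0.22 log2.

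miR-378a-5p, the other arm, differed by between -1.27 log2 in KO females and 1.63 in co-ex females. The co-ex females had 132, 0, 29 and 0 in FA and 13, 195, 0 and 129 in O3, so that mice at 0 occurred under both exposures. Its intervals were at least 3.82 log2 wide, so that changes within them were not detectable with this spread between mice.

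**Figure D3:**
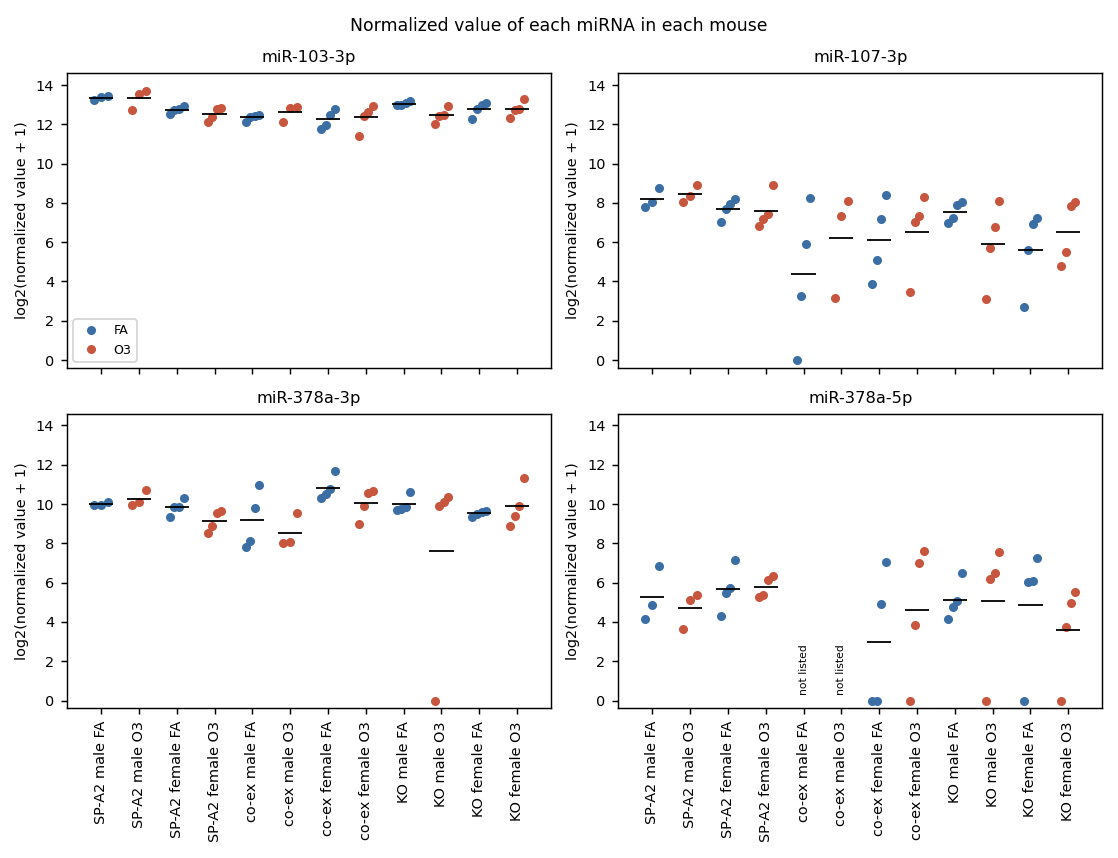
Normalized values of the 4 miRNAs in every mouse, as log2(normalized value + 1), with the 12 groups on the x axis, FA in blue and O3 in red. Bars mark group means. miR-103-3p stays in a narrow band from mouse to mouse, while miR-107-3p and miR-378a-5p spread widely in co-ex and KO mice, and 1 KO male O3 mouse is at 0 for both miR-378a arms.

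Whether sexes or genotypes responded differently to O3 was tested as a difference of differences for the 3 shared miRNAs, in 6 contrasts. None of the 18 tests passed, the smallest adjusted p being 0.562 in limma and the smallest unadjusted p 0.0901, and neither edgeR nor DESeq2 called any. In these contrasts 0% of all 206 miRNAs passed for the 3 sex differences and for SP-A2 minus KO, 0.485% for SP-A2 minus co-ex and 0.971% for co-ex minus KO. The sex difference in the response of KO mice was -0.58 log2 for miR-103-3p (interval -1.45 to 0.28), -2.53 for miR-107-3p (-6.44 to 1.38) and -2.76 for miR-378a-3p (-5.97 to 0.45). Without KO male O3 replicate 4 these were -0.58 log2 for miR-103-3p, -1.59 for miR-107-3p and -0.23 for miR-378a-3p.

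The genotypes were then compared for level, on recovered reads scaled together by TMM, since the 6 tables had been normalized separately. Each table holds a single genotype and sex, so a difference in how a table's libraries were made and a difference between genotypes or sexes cannot be told apart. On this scale miR-103-3p was lowest in co-ex mice, with a median of 6574 CPM (2598 to 8687, 15 mice) against 9234 (4321 to 13797, 14 mice) in SP-A2 and 9100 (4173 to 12649, 16 mice) in KO.

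The level of miR-103-3p in SP-A2 mice exceeded that in co-ex mice by 0.64 log2 (SE 0.18, interval 0.28 to 1.00), a fold of 1.56, and passed (adjusted p = 0.00475, edgeR). This was 1 of the 3 shared miRNAs, in a comparison that called 30.6% of all 206, 17.5% higher and 13.1% lower in SP-A2. It ranked 35th of 206 by p. SP-A2 males had 12033, 12029, 11052, 12636, 13797 and 6902 CPM, and co-ex males 4623, 8120, 5671, 4866, 6644, 8429 and 4153. All but 1 SP-A2 male thus lay above every co-ex male. In females the ranges overlapped more, 4321 to 10266 CPM in SP-A2 and 2598 to 8687 in co-ex.

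Within males the difference was 0.90 log2 (adjusted p = 0.0088, edgeR) and within females 0.38 log2 (adjusted p = 0.528, edgeR). Within FA mice it was 0.81 log2 (adjusted p = 0.0144, edgeR) and within O3 mice 0.48 log2 (adjusted p = 0.341, edgeR). Whether it differed between sexes or exposures was not tested. Without the 6 mice with many miRNAs at 0 it was 0.45 log2 (adjusted p = 0.0492, edgeR), and it passed in all 45 fits that left out 1 mouse. In 16 of these the mouse left out was KO, which has no weight in this contrast.

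Some markers of other cell types were also called in this comparison. The summed level of 2 erythroid miRNAs, nearly all miR-486b-5p, had a median of 16901 CPM in SP-A2 (1359 to 127553). It was 71046 in co-ex (2128 to 638923) and 73450 in KO (7524 to 649289). Of the 2, miR-486b-5p was lower in SP-A2 than in co-ex mice by 2.51 log2, and miR-451a did not pass. Of 10 epithelial miRNAs 3 were higher in SP-A2 and none lower, of 7 mesenchymal miRNAs none passed, and of 6 haematopoietic miRNAs 2 were higher and 1 lower. Beside these counts, 30.6% of all 206 miRNAs were called, 17.5% higher and 13.1% lower in SP-A2. The epithelial sums ran from 6946 to 25223 CPM in SP-A2 and from 890 to 23305 in co-ex, and the haematopoietic sums from 2859 to 13535 and from 1278 to 14158. Their part in the result was not tested.

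Between KO and the other genotypes miR-103-3p did not pass. Its difference was 0.18 log2 for SP-A2 against KO (interval -0.17 to 0.53, adjusted p = 0.709, edgeR), a comparison that called 8.74% of miRNAs. For co-ex against KO it was -0.46 log2 (interval -0.80 to -0.11, adjusted p = 0.138, edgeR), where 3.4% were called. DESeq2 placed the latter just past the threshold (-0.41 log2, adjusted p = 0.086).

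miR-107-3p had medians of 282 CPM in SP-A2 (145 to 503), 123 in co-ex (0 to 432) and 154 in KO (6.51 to 352). The lowest SP-A2 mouse had 145 CPM, and 8 co-ex and 7 KO mice were below it. The difference was 1.03 log2 against co-ex (SE 0.63, interval -0.24 to 2.30, adjusted p = 0.248, edgeR) and 1.07 against KO (SE 0.61, interval -0.17 to 2.31, adjusted p = 0.442, edgeR), and neither passed. DESeq2 called the first (1.19 log2, adjusted p = 0.0799). Leaving out co-ex male FA replicate 2, the co-ex mouse with the highest level, gave 1.69 log2 (adjusted p = 0.0359, edgeR). Without the 6 mice with many miRNAs at 0 the difference from co-ex was 0.71 log2 (adjusted p = 0.357, edgeR). It was 1.33 log2 within males (adjusted p = 0.315, edgeR) and 0.73 log2 within females (adjusted p = 0.846, edgeR).

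miR-378a-3p was at about the same median in the 3 genotypes, 1089 CPM in SP-A2 (353 to 1778), 1058 in co-ex (191 to 3590) and 1003 in KO (0 to 2536). The differences were 0.03 log2 for SP-A2 against co-ex (interval -0.78 to 0.85), -0.02 for SP-A2 against KO (-0.82 to 0.79) and -0.05 for co-ex against KO (-0.83 to 0.74). The first was 0.88 log2 in males alone (adjusted p = 0.297, edgeR) and -0.82 in females alone (adjusted p = 0.528, edgeR). Co-ex males and females differed most: males had 191, 2801, 957, 310, 230, 311 and 696 CPM, and females 3590, 2158, 1791, 1339, 1058, 640, 1458 and 1677. The difference between co-ex males and females was -1.30 log2 (SE 0.58, interval -2.47 to -0.14) and did not pass (adjusted p = 0.287, edgeR).

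No member passed in the comparisons of males with females. For all 206 miRNAs 0.971% passed in SP-A2 and 0% in co-ex and KO. For miR-103-3p the male level in SP-A2 was above the female level by 0.52 log2 (interval 0.01 to 1.03, unadjusted p = 0.0452, adjusted p = 0.405, edgeR), and DESeq2 called it (0.69 log2, adjusted p = 0.0415). In co-ex and KO the sex difference of miR-103-3p was 0.01 log2 and -0.19 log2.

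**Figure D4:**
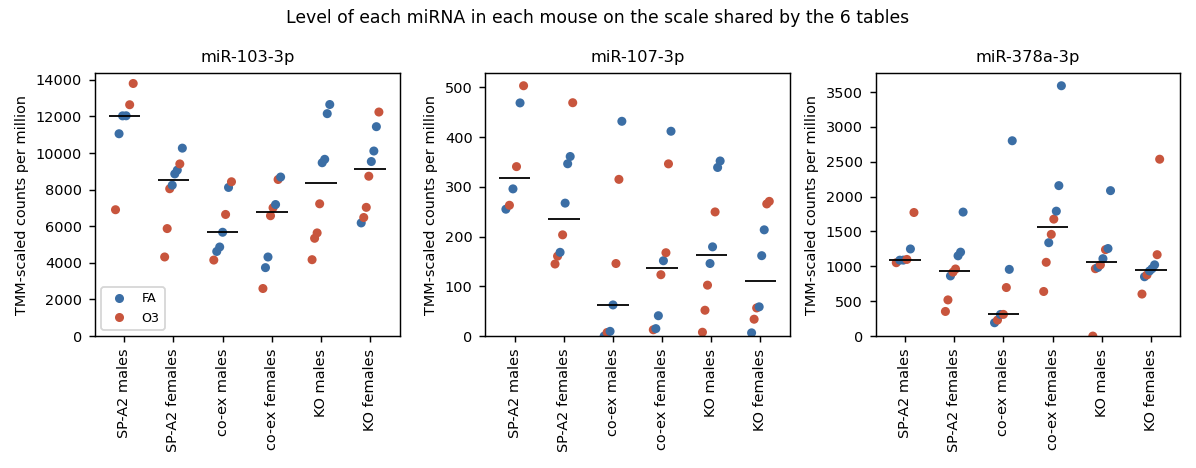
Level in every mouse in TMM-scaled CPM, from recovered reads, with the 6 genotype and sex groups on the x axis, FA in blue and O3 in red. Bars mark medians. miR-103-3p is highest in SP-A2 males and lowest in co-ex mice, where no mouse exceeds 8687, and the lowest SP-A2 mouse has 145 for miR-107-3p.

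The reads of the pair were also compared within each mouse, which cancels library size. There were 40.6 reads of miR-103-3p per read of miR-107-3p at the median of 45 mice, with a range from 9.16 to 1302 in the 44 mice with reads of both (0.5 reads were added to both counts). miR-103-3p was the more abundant in every mouse. The ratio did not differ detectably between O3 and FA (-0.28 log2, permutation p = 0.579 within tables, two-sided), and in all 6 tables the exposures overlapped.

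The same ratio was then compared between genotypes. In the 14 SP-A2 mice it ran from 9.16 to 64.8, with a median of 35.1. In 14 co-ex mice with reads of both it ran from 18.8 to 878. In the fifteenth, replicate 1 of the FA males, 749 reads of miR-103-3p stood against 0 of miR-107-3p, a ratio of at least 249.7 with the 0 at the floor of 3 reads. The median of the 15 was 39.1, and 6 were above 100. In 16 KO mice it ran from 21.3 to 1302, with a median of 67.3, and 5 were above 100. The co-ex mice above 100 had 0 to 27 reads of miR-107-3p and the KO mice above 100 had 2 to 62. Every SP-A2 mouse had at least 85. With reads summed over each group, the ratio was 30.2 to 44.4 in SP-A2, 31.8 to 53.8 in co-ex and 40.4 to 76.9 in KO groups. The ratio within a mouse was lower in SP-A2 than in KO mice by 1.36 log2 (permutation p = 0.00317 within sex and exposure, two-sided, adjusted p = 0.0254 over 8 comparisons), in the same direction in 4 of 4 strata. What part low counts of miR-107-3p have in this was not tested.

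Against co-ex mice the difference was -1.49 log2 (permutation p = 0.0356, adjusted p = 0.122), in 4 of 4 strata, and -1.32 log2 with the mouse without miR-107-3p reads at its bound (permutation p = 0.0379). None of the 6 mice with many miRNAs at 0 was SP-A2. Without them the difference was -1.06 log2 against co-ex mice (permutation p = 0.0826) and -0.80 log2 against KO mice (permutation p = 0.0134). Since the 2 sequences differ at 1 base, read assignment enters this ratio, and its part was not tested.

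For the arms of the miR-378a hairpin, there were 24.9 reads of miR-378a-3p per read of miR-378a-5p at the median of 37 mice, ranging from 2.58 to 84.9 in the 32 mice with reads of both. One mouse with no reads of either was left out. miR-378a-3p was the more abundant arm in all 37. The ratio did not differ detectably between O3 and FA (-0.41 log2, permutation p = 0.596). It was 6.48 to 84.9 in SP-A2 mice, 2.58 to 69.2 in 5 co-ex females and 5.29 to 74.7 in 13 KO mice. The other 3 co-ex females and 2 KO females had 0 reads of miR-378a-5p, with ratios of at least 176 to 339 and of at least 132 and 633 at the floor of 3 reads. The difference of -2.84 log2 between SP-A2 and co-ex females did not pass (permutation p = 0.0456, adjusted p = 0.122). Its size depended on the 0.5 reads added to the 0 counts, and with the 0 counts at the floor it was -1.87 log2 (permutation p = 0.0461).

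**Figure D5:**
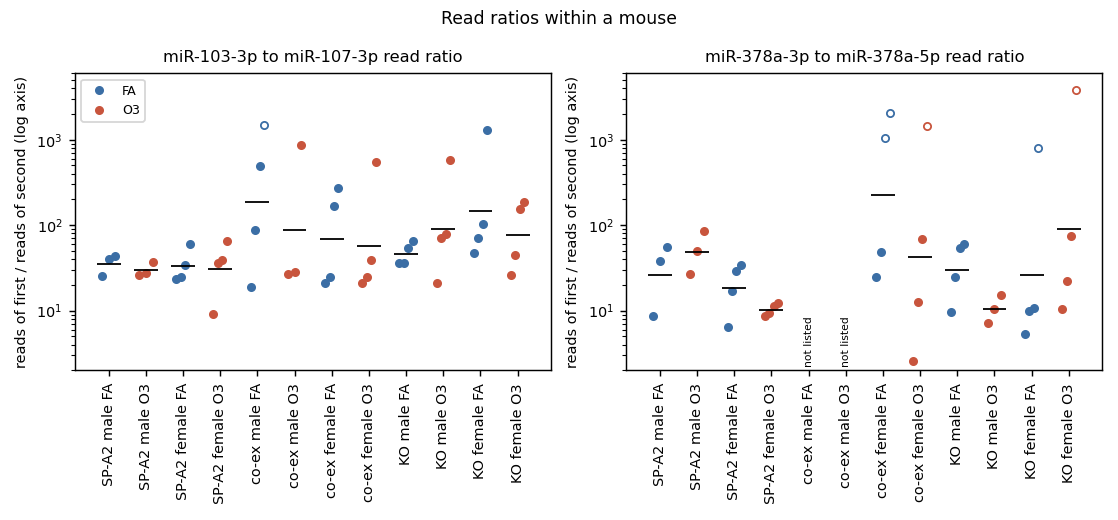
Reads of miR-103-3p per read of miR-107-3p (left) and of miR-378a-3p per read of miR-378a-5p (right) in each mouse, on a log axis, with the 12 groups on the x axis, FA in blue and O3 in red. Bars mark geometric means, and open circles mice with 0 reads of the second miRNA, whose height is set by the 0.5 reads added. SP-A2 mice lie between 9.16 and 64.8 on the left, whereas 6 co-ex and 5 KO mice are above 100. Each of those above 100 had at most 62 reads of miR-107-3p.

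Over the 45 mice, each set against its group mean, the pair sharing a seed did not vary together closely: Pearson's r of miR-103-3p with miR-107-3p was 0.13, the 82nd of 205 partners of miR-103-3p. miR-107-3p was closer to miR-378a-3p (r = 0.48, 11th of 205). KO male O3 replicate 4, with 0 and 2 reads of miR-378a-3p and miR-107-3p, weighs on this r. Without that mouse the spread of miR-378a-3p fell from 1.68 to 0.72 log2, and correlations were not recomputed. These correlations are descriptions, since all values of a mouse share its library and depth.

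The miRNAs most like miR-103-3p were miR-21a-5p (r = 0.66), miR-146b-5p (r = 0.66) and miR-30b-5p (r = 0.62). For miR-378a-3p they were miR-128-3p (r = 0.81), itself an intronic miRNA, miR-1839-5p (r = 0.70) and miR-30e-3p (r = 0.68). For miR-107-3p they were miR-3473e (r = 0.66), miR-1264-3p (r = 0.63) and miR-1843b-3p (r = 0.60). KO male O3 replicate 4 also weighs on each r of miR-378a-3p.

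Relatives of the 4 miRNAs were little detected. Of 6 looked for, 2 were listed, miR-378c in all tables and miR-378d in SP-A2 males alone. miR-378c had reads in 38 of 45 mice, with a median of 41, and values from 0 to 590. Its difference after O3 averaged 0.44 log2 (SE 0.82, adjusted p = 0.801, limma). miR-378d had 5 to 44 reads in the 6 SP-A2 males. The miR-378c precursor lies at chr14:46954830-46954928 on the minus strand, within an intron of Samd4 but on the opposite strand, and that of miR-378d at chr10:126710282-126710391 on the minus strand.

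Other intronic miRNAs were compared as a list. Of 28 tested in all tables (36 looked for), 3 were higher after O3 in the average and 1 lower, where 19.9% and 5.83% of all 206 were: miR-151-5p by 2.72 log2, miR-139-5p by 3.37 and miR-26a-5p by 0.62, and miR-342-3p by -0.42. The median of the 28 was -0.04 log2, against 0.19 over all 206. Between SP-A2 and co-ex, 5 of the 28 were higher in SP-A2 and 1 lower (17.5% and 13.1% of all 206), with a median of 0.36 log2 against 0.10 over all miRNAs. Those named for a rise there were miR-30e-5p (1.67 log2), miR-186-5p (2.16) and miR-340-5p (2.42).

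Of 9 miRNAs known for lipid or glucose metabolism that were tested (18 looked for), 4 were higher after O3 and none lower, again beside 19.9% and 5.83% of all 206: miR-143-3p by 3.19 log2, miR-375-3p by 2.29, miR-26a-5p by 0.62 and miR-27b-3p by 0.55. The median of the 9 was 0.35 log2. Those called between SP-A2 and co-ex were all higher in SP-A2: miR-27a-3p by 1.39 log2, miR-27b-3p by 1.01 and miR-223-3p by 0.93. The list shares miR-143-3p with the mesenchymal markers, miR-375-3p with the epithelial markers, miR-223-3p with the haematopoietic markers and miR-26a-5p with the intronic list. Of 3 miRNAs of the miR-15/16 family that were tested (7 looked for), none passed after O3 (median -0.13 log2). Between SP-A2 and co-ex, where 17.5% of all 206 were higher in SP-A2 and 13.1% lower, 2 of the 3 were higher in SP-A2. These were miR-16-5p by 1.07 log2 (adjusted p = 0.00919, edgeR) and miR-15a-5p by 1.76 log2 (adjusted p = 0.0724, edgeR). The third, miR-15b-5p, had a difference of -0.72 log2 (interval -1.44 to -0.01) and did not pass (adjusted p = 0.132, edgeR).

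The O3 difference averaged over the 6 tables (limma) was called for 19.9% of all 206 miRNAs as higher and 5.83% as lower. Of the markers, 8 of 10 epithelial and 7 of 7 mesenchymal miRNAs were called higher after O3, with median differences of 1.88 and 2.95 log2. None of 6 haematopoietic (median 0.14) or 2 erythroid miRNAs (median 0.23) was called. The summed epithelial level was 890 to 15150 CPM in FA and 7649 to 43119 in O3 mice, and the mesenchymal one 595 to 9630 and 4178 to 21887. Endothelial and muscle miRNAs were not listed in all tables and were not tested there. What part these markers have in the intervals of the 4 miRNAs was not tested.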

How the data were processed

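Small RNA of AM was sequenced from 45 mice with a NEXTflex kit on an Illumina HiSeq. The labels name CASAVA and edgeR, the study's methods edgeR and TCC, and the deposited tables are titled after DESeq2, so which tool scaled them is uncertain, and the authors' aligner and genome build are not given in the sources used here. They deposited 6 tables, one per genotype and sex, each normalized on its own. The deposited values were treated as a signal: every value is a whole multiple of the mouse's smallest (100% of values within a relative tolerance of 1e-06), so whole reads were recovered. The smallest step is certain only where low values are many: 8 mice had at least 100 values within 20 steps, and the fewest was 14. The tables keep miRNAs with reads in at least 3 or 4 mice. The authors' own p-value, q-value and ranking columns were not used.

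Within a table, O3 was compared with FA by limma (3.58.1, R 4.3.3) with a trend on log2(value + 1), adjusted by Benjamini-Hochberg over all listed miRNAs, at the FDR of 0.1 stated in the study's methods. A joint limma fit over the 206 shared miRNAs and 12 groups gave the average and the differences between responses. Fold changes are on the log2(value + 1) scale and understate changes of low miRNAs. Levels were compared by edgeR (4.0.16) quasi-likelihood tests with TMM scaling of recovered reads, and the SE is the log2 fold change divided by the root of F. DESeq2 (1.42.0) was an alternative. Ratios within a mouse were tested by exact permutation within a table (11 tests, every adjusted p at least 0.698; with 3 against 3 mice the smallest p is 0.1) and by 100000 permutations within strata. Scripts were tested on simulated data. Floors of 3 reads cover counting error only, whereas intervals of differences come from the fits over mice, and nothing states more than that each mouse is a separate animal.

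The miRNAs and lists were chosen with earlier results of these data known. Named in the text are the 4 miRNAs and miR-378c and miR-378d in each comparison, the 3 miRNAs most correlated with each, and up to 3 called miRNAs of a list with the smallest adjusted p. Where a list had 4 calls or fewer all were named, and miR-486b-5p and miR-451a were named after their values were seen. Replicates of a group were compared in 63 pairs (Spearman 0.626 to 0.907) and none was within sampling noise. Precursor positions are from GENCODE annotation of GRCm38 and mature sequences from RefSeq. Alternatives were other pseudocounts, filters, scalings, tools and thresholds, a replicate block, and leaving out mice.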

Additional observations from a re-analysis of the deposited data

Results flagged for a closer look

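In groups of 4 mice, 2 of 35 sets of member values held a mouse whose gap to its nearest neighbour exceeded Dixon's 95% critical value. Chance gives about 1 in 20. In SP-A2 females after O3, replicate 1 had a normalized value of 488 for miR-107-3p, whereas the others lay between 114 and 175. That value rests on 85 reads. In KO males in FA, replicate 1 had 1593 for miR-378a-3p, against 831 to 938 in the others, from 4486 reads. In the tests of response differences between sexes or genotypes no shared member passed, which does not exclude differences within their intervals.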

How the results depend on the processing

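In 1473 refits of the O3 results under other settings no member was called. In all, 2412 refits of 62 member results gave 2 calls lost and 10 gained, all for levels, and none reversed. The called level of miR-103-3p in SP-A2 against co-ex was lost in females alone and in O3 mice alone. The calls gained were 2 for miR-107-3p against co-ex, 6 for miR-103-3p in co-ex against KO and 2 for miR-103-3p between the sexes of SP-A2. Values that were not called changed sign in 137 refits. The subsets by sex or exposure and the removal of the 6 mice with many miRNAs at 0, and the refits of ratios between genotypes (0 counts at the floor included), were chosen after seeing the data.

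Counts over all miRNAs depended more on the settings, and the cause was not tested. For O3 against FA, the counts of 3 and 4 in SP-A2 (males, females), 0 and 4 in co-ex and 17 and 0 in KO became 54, 26, 5, 14, 41 and 2 with DESeq2. With edgeR the 3 in SP-A2 males became 5, the 4 in SP-A2 females 2 and the 4 in co-ex females 0. An FDR of 0.05 gave 1 instead of 3 in SP-A2 males and 10 instead of 17 in KO males. Leaving out 1 mouse gave 1 to 40 calls in SP-A2 males, 0 to 26 in SP-A2 females, 0 to 13 in co-ex females, 5 to 27 in KO males and 0 to 1 in KO females. The average over tables stayed at 45 to 59 calls without 1 mouse and at 36 to 60 under other settings. With edgeR its 43 calls split into 28 higher and 15 lower, and without the 6 mice its 41 into 37 and 4.

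For differences between responses, the sex contrast had 0 calls in SP-A2 and 1 with edgeR and 2 with DESeq2, and 0 in co-ex and 1 with a pseudocount of 0.1 and with DESeq2 (0 to 3 without 1 mouse). SP-A2 minus co-ex had 1 call, 0 with a pseudocount of 0.1, edgeR or an FDR of 0.05, 2 with DESeq2 and 0 to 2 without 1 mouse. Co-ex minus KO had 2 calls, 1 with a pseudocount of 0.1, 0 with a pseudocount of 10 or an FDR of 0.05 and 0 to 5 without 1 mouse.

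For levels, SP-A2 against co-ex had 63 calls, 8 in females and 27 in O3 mice. SP-A2 against KO had 18, 4 in males, 3 in females and 0 in O3 mice, and its split of 3 higher and 15 lower became 5 and 11 with median-ratio size factors and 10 and 17 with DESeq2. Co-ex against KO had 7, 21 with DESeq2, 2 at an FDR of 0.05, 32 in males, 0 in females or FA mice, 1 in O3 mice and 2 to 16 without 1 mouse. Between sexes, SP-A2 had 2 calls, 18 with DESeq2, 1 at an FDR of 0.05 and 0 to 15 without 1 mouse. Co-ex had 0, 12 with DESeq2, 1 with a low-count filter and 0 to 11 without 1 mouse, and KO had 0, 9 with DESeq2 and 0 to 2 without 1 mouse. Other scalings moved the median of all miRNAs by -0.21 to 0.15 log2.

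Replicate numbers did not pair the mice: the deviations of same-numbered FA and O3 mice correlated over 0.1 in 6 of 22 pairs (r from -0.14 to 0.27), and the own number was best in 5. With a replicate block the O3 counts became 1 and 0 in SP-A2 (males, females) and 2 in KO females, 0 for SP-A2 minus co-ex and for co-ex minus KO, and the level counts 21 for co-ex against KO and 4 between SP-A2 sexes. The block gained the call of miR-103-3p in co-ex against KO (-0.49 log2, adjusted p = 0.0716, edgeR) and changed no other member call. The ratio differences between SP-A2 and co-ex, at an unadjusted permutation p, were -1.06 log2 (miR-103-3p to miR-107-3p) and -2.31 log2 (miR-378a arms) without the 6 mice, no longer under 0.05, and -1.76 to -1.07 and -3.52 to -1.99 without 1 mouse (p under 0.05 in 17 of 29 and 10 of 22 fits). The miR-378a arms were compared in females only, so those of the 22 fits that left out an SP-A2 male repeated the full result. For miR-103-3p to miR-107-3p, SP-A2 minus KO was -1.54 to -1.10 log2 without 1 mouse, with permutation p under 0.05 each time. Counts were lowest for miR-378a-5p and miR-107-3p, with fewer than 20 reads in 13 of 38 and 8 of 45 mice. These were not all shallow libraries: co-ex male O3 replicate 1 had 11 reads of miR-107-3p in 1757205 listed reads.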
